A study of Sus scrofa with 12 samples.

Results

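The 8 genes described here act around the last steps by which a boar testis releases its pheromone and estrogens. They are CYB5A (cytochrome b5), CYB5R1 (a cytochrome b5 reductase), the aromatase copies CYP19A1, CYP19A2 and CYP19A3, the sulfotransferases SULT2A1 and SULT1E1, and STS (steroid sulfatase). They were taken by symbol from the deposited table of coding genes, by a rule that uses no measured value, and make up 8 of its 21674 genes.

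RNA was sequenced from testes of Hezuo boars (HZ), a miniature breed of the plateau, and of Landrace boars (LC), at 30 or 120 days of age. There were 3 animals per breed and age, 1 library per animal and 12 libraries in all. Libraries Ha1 to Ha3 came from 30-day HZ, Hb1 to Hb3 from 120-day HZ, La1 to La3 from 30-day LC and Lb1 to Lb3 from 120-day LC. All animals came from 1 breeding company, were reared under the same conditions and gave their testes at castration, and RNA was taken from bulk testis tissue, so each library mixes cell types.

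As background, Leydig cells lie between the seminiferous tubules and make steroids from cholesterol. Their enzyme CYP17A1 makes androgen precursors, and with cytochrome b5 beside it also the 16-androstenes, among them androstenone, the boar pheromone that taints pork. Aromatase turns androgens into estrogens, sulfotransferases turn steroids into water-soluble sulfates that boars release in large amounts, and steroid sulfatase takes the sulfate off again.

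The age comparisons (Ha against Hb in HZ, La against Lb in LC) asked how each gene differed between 30 and 120 days. The breed comparisons (Ha against La, Hb against Lb) asked how it differed between HZ and LC at 1 age. The estimated counts of coding genes summed to 23758931, 22538417 and 23490893 in Ha1, Ha2 and Ha3, to 20678367, 22707568 and 17165519 in Hb1, Hb2 and Hb3, to 22233155, 18523274 and 23563949 in La1, La2 and La3, and to 23253496, 22951618 and 18998959 in Lb1, Lb2 and Lb3. At these depths 3 counts, used here as the floor of detection in a library, stood for 0.115 to 0.198 CPM (counts scaled to library size). For CPM the library sizes were adjusted by TMM, a scaling between libraries, so they differ from the sums above. This floor covers counting error only.

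Library Hb1 stood apart from Hb2 and Hb3 in genes of steroid-making Leydig cells. CYP17A1 read 468 FPKM (a length-scaled and depth-scaled read count) in Hb1, 7.92 in Hb2 and 6.63 in Hb3. By CPM, Hb1 exceeded Hb2 and Hb3 by 68.2-fold and 74.7-fold for CYP17A1, by 21.4-fold and 59.8-fold for INSL3, a Leydig hormone, and by 19-fold and 16.3-fold for STAR, which carries cholesterol into mitochondria. HSD3B1 and HSD17B3, enzymes later on the way to testosterone, did not share this gap, with Hb1 at 1.48 and 1.03 times Hb2 and Hb3 for HSD3B1 and at 0.677 and 0.616 times for HSD17B3. Many results that rest on the 120-day HZ group are therefore also given without Hb1, or with Hb1 as the only library of its group. What set Hb1 apart was not tested.

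A gene was called when edgeR gave an adjusted p under 0.05 over all genes tested and an absolute log2 fold change over 1. Of the 8 genes, 6 passed the filter on low counts in Ha against Hb, La against Lb and Ha against La, and 7 did so in Hb against Lb. In HZ, 3 of the 6 genes tested were called between the ages, 1 higher and 2 lower at 120 days, where 51.4% of 16548 genes were called, 28.2% higher and 23.2% lower. In LC, 4 of 6 were called between the ages, 2 higher (1 of them CYP19A2, which passed the filter through its Lb counts alone) and 2 lower, where 47.6% of 16637 genes were called, 27.5% higher and 20.1% lower. At 30 days 1 of 6 was called between the breeds, beside 7.62% of 15648 genes. At 120 days edgeR called 0 of 7, beside 3.85% of 16311 genes, with 2 of the 7 at an unadjusted p under 0.05 and 1 called by DESeq2. The test of whether the age difference itself differed between the breeds (the interaction) also called 0 of 7 by edgeR, beside 5.14% of 17332 genes, with 2 at an unadjusted p under 0.05 and 1 called by DESeq2. The shares in the age comparisons lie near those of all genes, so the counts are no result about these 8 genes as a set. Their median log2 fold change over the genes tested was -1.06 in HZ with age, -0.13 in LC with age, 0.35 between breeds at 30 days and 1.51 at 120 days, where the medians of all genes were -0.02, 0.01, 0.00 and 0.00. The LC median was the same with CYP19A2, whose La libraries were near 0, set at its lower bound. These medians include Hb1. Without Hb1 there were 5 calls in Ha against Hb, 3 in Hb against Lb and 3 for the interaction, where 8279 of 16908, 622 of 16672 and 987 of 17595 genes were called. With Hb1 as the only Hb library there were 2, 0 and 0, where 8980 of 17351, 316 of 17081 and 1157 of 17993 genes were called.

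**Figure D1:**
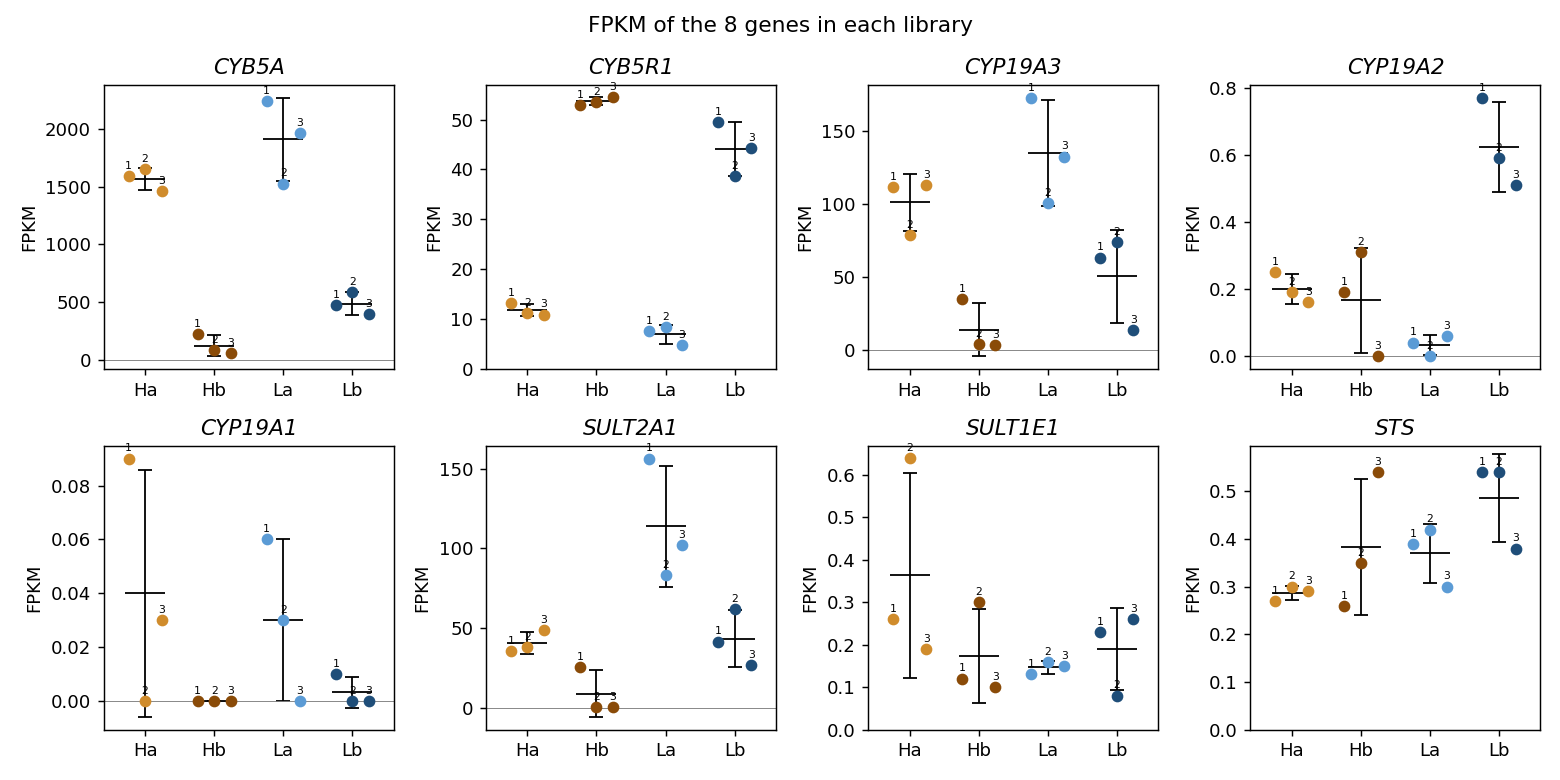
FPKM of the 8 genes in each library of Ha (30-day HZ), Hb (120-day HZ), La (30-day LC) and Lb (120-day LC), each panel on its own linear axis; points are libraries with their replicate number, horizontal lines the mean of 3 libraries and bars the standard deviation. CYB5A is lower and CYB5R1 higher in every 120-day library than in every 30-day library, while CYP19A1, CYP19A2, SULT1E1 and STS stay under 1 FPKM.

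Cytochrome b5 acts beside CYP17A1 and steers it towards androgen precursors and 16-androstenes. CYB5A (ncbi_414799) read 1597, 1652 and 1463 FPKM in Ha1, Ha2 and Ha3 and 222, 83.5 and 55.4 FPKM in Hb1, Hb2 and Hb3. In LC it read 2244, 1528 and 1966 FPKM in La1, La2 and La3 and 474, 589 and 393 FPKM in Lb1, Lb2 and Lb3. All 6 of the 120-day libraries lay below all 6 of the 30-day libraries, and all 3 of the Hb libraries lay below all 3 of the Lb libraries. Among all genes ranked by FPKM within a library, CYB5A held ranks 9 to 13 in Ha and 10 to 16 in La, so it was among the most abundant messages of the young testis. At 120 days it held ranks 44 to 82 in Lb and 182 to 1025 in Hb.

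The order of CYB5A levels was La at 1913 ± 361 FPKM, Ha at 1571 ± 96.9, Lb at 485 ± 98.3 and Hb at 120 ± 89.1 (mean ± SD, n = 3), and only the neighbours La and Ha overlapped. In edgeR CYB5A fell with age in HZ, with a log2 fold change of -3.17 (SE 0.54, adjusted p = 0.00152, lower in 3 of 3 libraries). It also fell in LC, by -1.66 (SE 0.21, adjusted p = 0.000142, lower in 3 of 3). The HZ change was -4.06 without Hb1 and -2.24 with Hb1 as the only 120-day HZ library, and was called both ways. Between breeds the log2 difference of CYB5A was 0.31 at 30 days (SE 0.14, adjusted p = 0.151) and 1.88 at 120 days (SE 0.50, adjusted p = 0.0687), neither called by edgeR. The 120-day breed difference was called at 2.73 without Hb1 (adjusted p = 0.00551 in edgeR) and read 0.97 with Hb1 alone. It was also called by DESeq2 (1.87, adjusted p = 0.0418), in a fit of all 12 libraries (1.82, adjusted p = 0.0173) and by limma on FPKM (2.23, adjusted p = 0.0295, with a pseudocount of 1). The age differences of the breeds themselves differed by an interaction of 1.51 for CYB5A (SE 0.60, adjusted p = 0.150 in edgeR), which missed the threshold, and by 2.42 without Hb1 (adjusted p = 0.00207). With limma on FPKM the interaction passed at 1.96 (adjusted p = 0.0363), and with Hb1 alone it was 0.57.

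CYB5R1 (ncbi_100511951) codes for a reductase that passes electrons from NADH to cytochrome b5. It read 13.2, 11.2 and 10.9 FPKM in Ha1, Ha2 and Ha3 and 52.9, 53.6 and 54.5 FPKM in Hb1, Hb2 and Hb3. In LC it read 7.59, 8.45 and 4.83 FPKM in La1, La2 and La3 and 49.4, 38.7 and 44.3 FPKM in Lb1, Lb2 and Lb3. CYB5R1 thus ran opposite to CYB5A: every 120-day library was above every 30-day library. The related reductases CYB5R2, CYB5R3 and CYB5R4 were not found by symbol, so cytochrome b5 reductase as a whole was not measured. Whether CYB5R1 and CYB5A are expressed in the same cells was not tested. The Hb libraries were alike, with Hb1 at 1.15 times Hb2 and 1.03 times Hb3 by CPM, so the gap seen in CYP17A1 was not seen in CYB5R1. CYB5R1 stood highest in Hb at 53.6 ± 0.778 FPKM, then Lb at 44.1 ± 5.39, Ha at 11.8 ± 1.24 and La at 6.96 ± 1.89 (mean ± SD, n = 3), and no neighbours overlapped. Its rank among all genes by FPKM moved from 4269 to 4826 in Ha to 985 to 1094 in Hb, and from 5716 to 7977 in La to 1171 to 1570 in Lb.

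In edgeR CYB5R1 rose with age by a log2 fold change of 2.68 in HZ (SE 0.14, adjusted p = 6.19e-06) and of 2.98 in LC (SE 0.22, adjusted p = 6.92e-06), higher in 3 of 3 libraries in each breed. The interaction of CYB5R1 was 0.29 (SE 0.27, adjusted p = 0.550). At 30 days LC lay below HZ by a log2 difference of -0.73 (SE 0.21, adjusted p = 0.0461), under the fold threshold. At 120 days the difference of CYB5R1 was -0.40 (SE 0.14, adjusted p = 0.130).

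POR, which donates electrons to microsomal P450 enzymes such as CYP17A1 and aromatase, gave a yardstick for CYB5A within each library. The ratio of CYB5A to POR by FPKM was 13.6, 15.0 and 14.8 in Ha1, Ha2 and Ha3 and 11.4, 6.79 and 6.38 in Hb1, Hb2 and Hb3. In LC the ratio was 15.4, 16.2 and 16.8 in La1, La2 and La3 and 14.7, 13 and 14.9 in Lb1, Lb2 and Lb3. CYB5A therefore stayed several times above POR everywhere, with the lowest ratios in Hb2 and Hb3, and within each breed all 120-day ratios lay below all 30-day ratios. An exact two-sided permutation test of age within breed gave a mean log2 difference of -0.53 in this ratio (p = 0.005, adjusted p = 0.0133 over 8 ratio tests), 0.005 being the smallest p that its 400 arrangements can give. The mean log2 ratio was 3.85 in Ha, 2.98 in Hb, 4.01 in La and 3.83 in Lb, so Hb stood furthest from the other groups. The same exact permutation test of breed within age gave a log2 difference of 0.50, averaged over the ages, in the ratio of CYB5A to POR (p = 0.005, adjusted p = 0.0133). With Hb1 as the only Hb library both kept their direction in the exact test, at -0.26 for age and 0.24 for breed, each with an adjusted p of 0.025. The age call was lost without Ha1, Ha2 or Ha3 (exact permutation, adjusted p = 0.104, 0.09 and 0.1), and the breed call without Ha1, Lb1, Lb2 or Lb3 (0.08, 0.147, 0.133 and 0.12).

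The ratio of CYB5A to CYP17A1 bears on the enzyme that cytochrome b5 serves. It was 0.907, 0.967 and 0.852 in Ha1, Ha2 and Ha3 and 0.474, 10.5 and 8.35 in Hb1, Hb2 and Hb3. In LC it was 0.720, 0.720 and 0.759 in La1, La2 and La3 and 0.603, 0.461 and 0.570 in Lb1, Lb2 and Lb3. In 10 of the 12 libraries CYB5A was less abundant than CYP17A1, at 0.461 to 0.967 of its FPKM, and in Hb2 and Hb3, where CYP17A1 was nearly gone, CYB5A exceeded it. The age difference of this log2 ratio was 0.75 (exact permutation p = 0.4, adjusted p = 0.4) and its breed difference was -1.49 (exact permutation p = 0.065, adjusted p = 0.0867). The age difference turned to -0.69 with Hb1 as the only Hb library (exact permutation, adjusted p = 0.025), and the breed difference was -2.21 without Hb1 (exact permutation, adjusted p = 0.008) but -0.0591 with Hb1 as the only Hb library (exact permutation, adjusted p = 0.75).

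**Figure D2:**
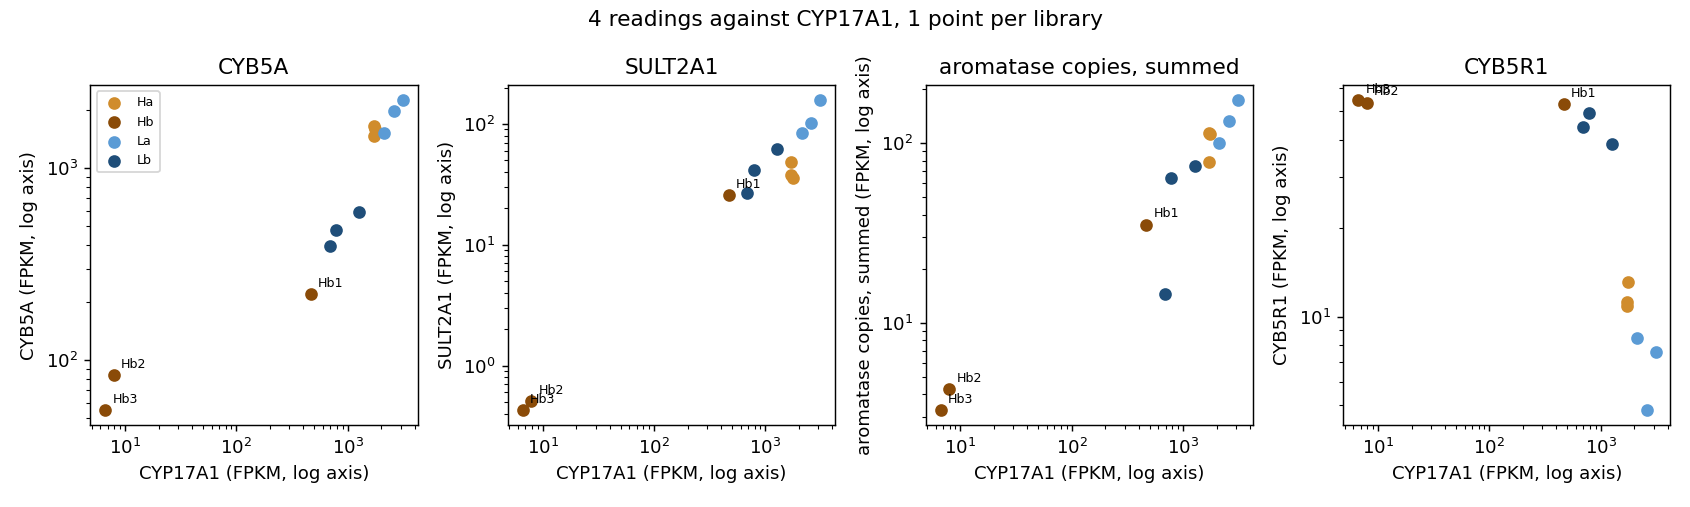
CYB5A, SULT2A1, the summed aromatase copies and CYB5R1 against CYP17A1, all in FPKM on log axes, 1 point per library, with the 3 Hb libraries named. Hb2 and Hb3, at 7.92 and 6.63 FPKM of CYP17A1, lie far to the left of the other 10 libraries, low for CYB5A, SULT2A1 and aromatase and high for CYB5R1.

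The pig carries several aromatase genes side by side, and on chromosome 1 of Sscrofa11.1 the order was CYP19A3 (120476890 to 120556103), CYP19A1 (120596235 to 120627806) and CYP19A2 (120652172 to 120695899). The cluster spanned 219010 bases, with gaps of 40131 bases between CYP19A3 and CYP19A1 and of 24365 bases between CYP19A1 and CYP19A2. These copies are close in sequence, and how the counting split reads among them is uncertain, so each copy's values carry that limit and their sum is given as well.

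CYP19A3 (ncbi_403333) carried nearly all aromatase reads. It read 112, 78.6 and 113 FPKM in Ha1, Ha2 and Ha3 and 35.1, 3.95 and 3.28 FPKM in Hb1, Hb2 and Hb3. In LC it read 173, 101 and 133 FPKM in La1, La2 and La3 and 63.5, 74.2 and 13.9 FPKM in Lb1, Lb2 and Lb3. Within each breed all 120-day libraries lay below all 30-day libraries, but the 120-day groups spread widely, by 6.93-fold in Hb from Hb3 to Hb1 and by 4.51-fold in Lb from Lb3 to Lb2 on the CPM scale. CYP19A3 levels ran La at 135 ± 36.3 FPKM, Ha at 101 ± 19.6, Lb at 50.5 ± 32.2 and Hb at 14.1 ± 18.2 (mean ± SD, n = 3). La overlapped Ha and Lb overlapped Hb, and Ha and Lb overlapped by CPM but not by FPKM.

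In edgeR CYP19A3 fell with age in HZ by a log2 fold change of -1.97 (SE 0.74, adjusted p = 0.0448), near the threshold. Leaving out any 1 of Ha1, Ha2, Ha3, Hb2 or Hb3 ended this call, with log2 fold changes of -1.91, -2.14, -1.89, -1.63 and -1.55 and adjusted p-values of 0.0895, 0.0628, 0.0946, 0.0932 and 0.101 in that order. Without Hb1 the change was -3.49 and called, and with Hb1 as the only Hb library it was -0.78 and not called. In LC the log2 difference of CYP19A3 with age was -0.97 (SE 0.46, adjusted p = 0.0917 in edgeR), which was not called and ran from -1.33 without Lb2 to -0.55 without Lb3, although limma on FPKM called it at -1.68 (adjusted p = 0.0236, pseudocount 1). The breed difference of CYP19A3 was 0.45 at 30 days (SE 0.21, adjusted p = 0.164) and 1.51 at 120 days (SE 0.81, adjusted p = 0.279) in edgeR, the latter being called without Hb1 at 2.98 (adjusted p = 0.0435) and 0.33 with Hb1 alone. The interaction of CYP19A3 was 1.0 (SE 0.96, adjusted p = 0.564 in edgeR), 2.53 and called without Hb1, and -0.20 with Hb1 as the only Hb library.

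CYP19A2 (ncbi_403332) was low in every library, and its estimated counts are given because FPKM was near 0. It had 12.3, 9.01 and 7.90 counts in Ha1, Ha2 and Ha3 and 9.02, 17.1 and 0 counts in Hb1, Hb2 and Hb3. In LC it had 1.86, 0 and 3 counts in La1, La2 and La3 and 42.9, 32 and 23 counts in Lb1, Lb2 and Lb3. All Lb libraries lay above all others, and all La libraries were at or under the floor of 3 counts. Against the floor of La its mean CPM in Lb was at least 11.8-fold higher. CYP19A2 passed the filter in La against Lb through Lb alone, the group where it was high, so its call in edgeR (adjusted p = 0.000388) adds no support to these counts. The fitted log2 fold change of 4.35 (SE 0.64) depends on the prior count that stands in for near-absent reads, and was 0.65 in limma on log2 FPKM with a pseudocount of 1, under the fold threshold. CYP19A2 did not pass the filter on low counts in Ha against Hb or in Ha against La. In Ha against La all La libraries lay below all Ha libraries, and the mean CPM of Ha was at least 2.85-fold higher than the floor of La, so that LC was below HZ at 30 days and above it at 120 days. The 120-day breed difference of CYP19A2 was 1.81 (SE 0.85, adjusted p = 0.228 in edgeR). Its interaction was 4.09 (SE 1.25, adjusted p = 0.0709 in edgeR), not called, but called by DESeq2 at 4.18 (adjusted p = 0.0229), by limma with a pseudocount of 0.1 at 2.83 (adjusted p = 0.0136) and in edgeR without Hb2 at 4.82 (adjusted p = 0.0421). It entered the interaction and Hb against Lb mainly through the same Lb counts, so these calls add no support either. CYP19A2 levels ran Lb at 0.623 ± 0.133 FPKM, Ha at 0.200 ± 0.0458, Hb at 0.167 ± 0.156 and La at 0.0333 ± 0.0306 (mean ± SD, n = 3), where Hb overlapped both Ha and La.

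CYP19A1 (ncbi_403331) was barely detected, with 0 to 6.69 counts in Ha, 0 in all 3 Hb libraries, 0 to 4.15 in La and 0 to 1.15 in Lb. It passed no filter on low counts and was not tested in any comparison. Its groups overlapped throughout, and a difference was not detectable at this depth.

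Summed over the 3 copies, aromatase read 112, 78.8 and 113 FPKM in Ha1, Ha2 and Ha3, 35.3, 4.26 and 3.28 FPKM in Hb1, Hb2 and Hb3, 173, 101 and 133 FPKM in La1, La2 and La3 and 64.2, 74.8 and 14.4 FPKM in Lb1, Lb2 and Lb3. The sum followed CYP19A3 closely, because even in Hb2, where the other copies held their largest share, CYP19A3 had 364 of 382 aromatase counts. In edgeR the summed counts fell with age in HZ by -1.96 (adjusted p = 0.0442) and differed by -0.95 in LC (adjusted p = 0.0938), which was not called. Between breeds the sum differed by 0.45 at 30 days (adjusted p = 0.166) and by 1.52 at 120 days (adjusted p = 0.275) in edgeR, with an interaction of 1.01 (adjusted p = 0.557). The call in HZ was lost on leaving out Ha1, Ha2, Ha3, Hb2 or Hb3, and it read -0.78 with Hb1 alone. Without Hb1 the HZ change was -3.45, the 120-day breed difference 2.96 and the interaction 2.52, all called. With Hb1 alone the 120-day breed difference was 0.34 (adjusted p = 0.790 in edgeR) and the interaction -0.19.

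Relative to CYP17A1, which makes the androgens that aromatase uses, summed aromatase was 0.0636, 0.0462 and 0.0661 by FPKM in Ha1, Ha2 and Ha3 and 0.0754, 0.538 and 0.495 in Hb1, Hb2 and Hb3. In LC the ratio was 0.0555, 0.0474 and 0.0512 in La1, La2 and La3 and 0.0817, 0.0586 and 0.0209 in Lb1, Lb2 and Lb3. The ratio stayed under 0.1 in all libraries but Hb2 and Hb3. Averaged over the breeds, the log2 ratio differed with age by 1.04 (exact permutation p = 0.19, adjusted p = 0.217). Its means were -4.11 in Ha and -1.88 in Hb but -4.29 in La and -4.43 in Lb, so the breeds ran opposite ways. Averaged over the ages, it differed with breed by -1.36 (exact permutation p = 0.05, adjusted p = 0.08). Neither difference passed the threshold after adjustment. Without Lb3 the age difference passed at 1.33 (exact permutation, adjusted p = 0.0133), and without Hb1 the breed difference passed at -1.83 (exact permutation, adjusted p = 0.0267). With Hb1 as the only Hb library they were 0.12 for age (exact permutation, adjusted p = 0.75) and -0.44 for breed (exact permutation, adjusted p = 0.55).

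SULT2A1 (ncbi_641359) sulfates hydroxysteroids such as dehydroepiandrosterone. It read 35.4, 37.9 and 48.5 FPKM in Ha1, Ha2 and Ha3 and 25.6, 0.51 and 0.43 FPKM in Hb1, Hb2 and Hb3. In LC it read 156, 83.4 and 102 FPKM in La1, La2 and La3 and 41.5, 62.1 and 26.8 FPKM in Lb1, Lb2 and Lb3. La lay above every other group, while Hb split, with Hb1 close to Ha and Hb2 and Hb3 nearly without SULT2A1. By CPM Hb1 exceeded Hb2 by 56.2-fold and Hb3 by 61.1-fold, the widest gap within a group among the 8 genes wherever the lowest library was above 0. SULT2A1 levels ran La at 114 ± 38.0 FPKM, Lb at 43.5 ± 17.8, Ha at 40.6 ± 6.97 and Hb at 8.86 ± 14.5 (mean ± SD, n = 3), where Lb overlapped Ha, and Ha overlapped Hb by CPM but not by FPKM.

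At 30 days SULT2A1 was higher in LC than in HZ by a log2 fold change of 1.53 in edgeR (SE 0.23, adjusted p = 0.00498, higher in 3 of 3 libraries), the only breed difference that edgeR called among the 8 genes. It was called without any 1 of the 6 libraries, at 1.24 to 1.72, but not in a fit of all 12 libraries, where its size was 1.53 and its adjusted p 0.386. With age SULT2A1 fell in LC by -1.07 in edgeR (SE 0.34, adjusted p = 0.0210, lower in 3 of 3 libraries). That call was lost without La1 (-0.77), without Lb1 (-1.04, adjusted p = 0.0604 in edgeR), without Lb3 (-0.79) and in the fit of all 12 libraries (-1.08, adjusted p = 0.354). In HZ the log2 difference of SULT2A1 with age was -1.61 with a large error (SE 1.32, adjusted p = 0.304 in edgeR). This value rested on Hb1: without it the change was -5.93 (adjusted p = 1.48e-05), and with Hb1 as the only Hb library it was -0.09. Limma on FPKM also called the HZ change, at -3.42 (adjusted p = 0.0190, pseudocount 1). Between breeds at 120 days SULT2A1 differed by 2.14 (SE 1.29, adjusted p = 0.331 in edgeR), by 6.40 without Hb1 (adjusted p = 0.00232) and by 0.61 with Hb1 alone. The interaction of SULT2A1 was 0.54 (SE 1.42, adjusted p = 0.861 in edgeR), 4.87 without Hb1 (adjusted p = 0.00169), -0.03 without Hb2 and -1.0 with Hb1 as the only Hb library.

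SULT1E1 (ncbi_397052), the estrogen sulfotransferase, was near the floor of detection, at 11 to 37 counts in Ha, 5 to 21 in Hb, 7 to 10 in La and 5 to 14 in Lb. Its FPKM ran from 0.08 in Lb2 to 0.64 in Ha2, and the order of group means was Ha at 0.363 ± 0.242, Lb at 0.190 ± 0.0964, Hb at 0.173 ± 0.110 and La at 0.147 ± 0.0153 FPKM (mean ± SD, n = 3), with every pair of neighbours overlapping. All La libraries lay below all Ha libraries, but the log2 difference of -1.24 was not called (SE 0.56, adjusted p = 0.151 in edgeR). SULT1E1 differed with age in HZ by -0.51 (SE 0.66, adjusted p = 0.512), between breeds at 120 days by -0.13 (SE 0.65, adjusted p = 0.917) and in the interaction by 1.06 (SE 0.88, adjusted p = 0.499), none called by edgeR. It did not pass the filter in La against Lb. Without Ha2, its highest library, the HZ difference turned to 0.19, the 30-day breed difference was -0.52 and the interaction 0.36.

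STS (ncbi_448816), which frees steroids from their sulfates, was low in every library, at 40 to 42 counts in Ha, 38 to 65 in Hb, 43 to 53 in La and 48 to 85 in Lb. By CPM all 120-day libraries lay above all 30-day libraries of their breed, but by FPKM the ages overlapped in both breeds. Its FPKM was 0.27, 0.30 and 0.29 in Ha1, Ha2 and Ha3, 0.26, 0.35 and 0.54 in Hb1, Hb2 and Hb3, 0.39, 0.42 and 0.30 in La1, La2 and La3 and 0.54, 0.54 and 0.38 in Lb1, Lb2 and Lb3. On that scale STS ran Lb at 0.487 ± 0.0924, Hb at 0.383 ± 0.143, La at 0.370 ± 0.0624 and Ha at 0.287 ± 0.0153 (mean ± SD, n = 3), with every pair of neighbours overlapping or tied. In edgeR STS differed with age by 0.89 in HZ (SE 0.36, adjusted p = 0.0600) and by 0.72 in LC (SE 0.31, adjusted p = 0.0648), neither called. The difference in HZ passed without Hb1 at 1.08 (adjusted p = 0.0418) and was 0.44 with Hb1 alone. Between breeds STS differed by 0.39 at 30 days (SE 0.27, adjusted p = 0.336) and by 0.24 at 120 days (SE 0.39, adjusted p = 0.729) in edgeR, and the interaction was -0.19 (SE 0.46, adjusted p = 0.846).

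The ratio of SULT2A1 to STS sets the RNA of a sulfotransferase against that of a sulfatase and does not measure sulfation itself. STS ran only from 0.26 to 0.54 FPKM over the libraries, so the ratio mostly followed SULT2A1. By FPKM the ratio was 131, 126 and 167 in Ha1, Ha2 and Ha3 and 98.6, 1.46 and 0.796 in Hb1, Hb2 and Hb3. In LC the ratio was 401, 199 and 340 in La1, La2 and La3 and 76.8, 115 and 70.4 in Lb1, Lb2 and Lb3. SULT2A1 outweighed STS by a wide margin in 10 libraries, and the genes were close to even in Hb2 and Hb3. With age within breed the log2 ratio fell by 3.33 on average (exact permutation p = 0.005, adjusted p = 0.0133), and with Hb1 as the only Hb library it fell by 1.16 (exact permutation, adjusted p = 0.025). The call with age was lost without Ha1, Ha2 or Ha3 (exact permutation, adjusted p = 0.104, 0.0933 and 0.104). Between breeds within age it was higher in LC by 2.62 (exact permutation p = 0.025, adjusted p = 0.05, not under the threshold), by 3.70 without Hb1 (exact permutation, adjusted p = 0.008), by 2.77 without La2 (exact permutation, adjusted p = 0.04) and by 0.44 with Hb1 as the only Hb library (exact permutation, adjusted p = 0.34). A single gene compared by permutation between 3 and 3 libraries could not go below p = 0.1, so no such test was run on single genes.

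**Figure D3:**
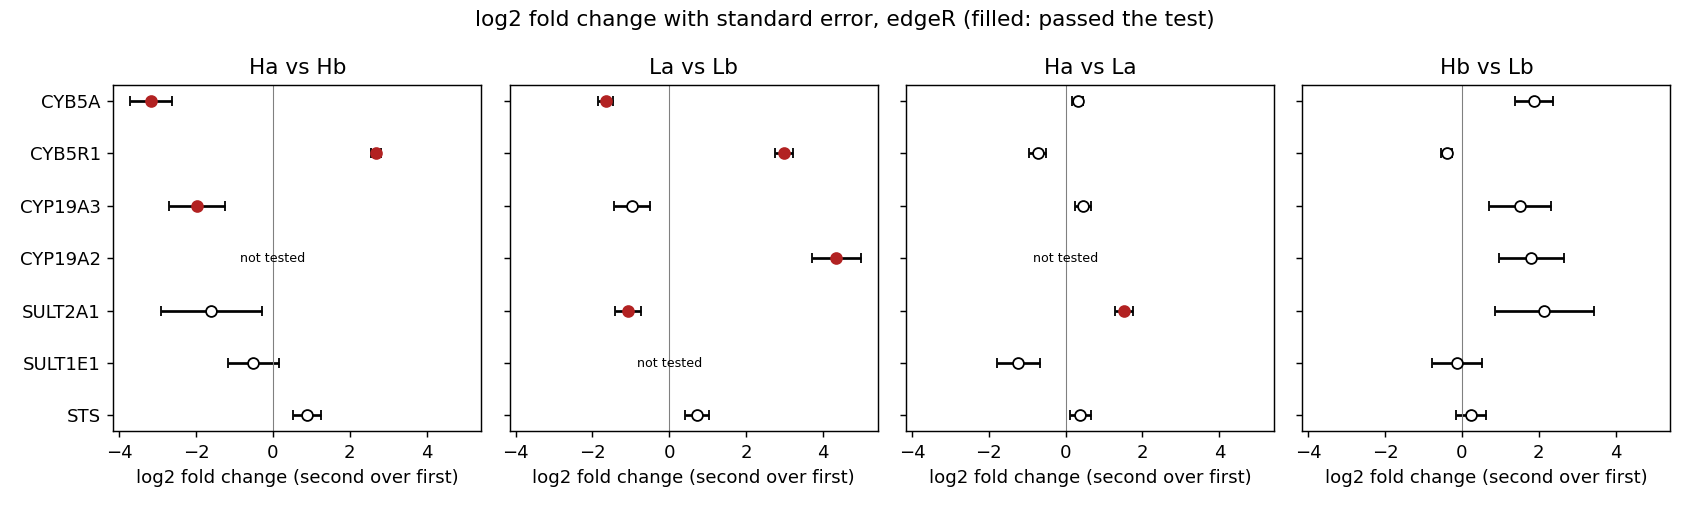
Log2 fold changes of the 7 genes that edgeR tested, second group over first, in Ha against Hb, La against Lb, Ha against La and Hb against Lb; bars are standard errors and filled points were called. CYB5A lies on the lower side and CYB5R1 on the higher side in both age comparisons, and the bars of SULT2A1 and CYP19A3 are long where Hb is involved; the CYP19A2 value in La against Lb is fitted against a group at the floor.

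On the scale of the deposited FPKM the median log2 difference of all genes was negative in both age comparisons. With a pseudocount of 0.1 it was -0.47 in Ha against Hb and -0.27 in La against Lb. On log2 FPKM with a pseudocount of 1 the median of all genes was -0.28 in Ha against Hb and -0.16 in La against Lb. Relative to these medians CYB5A changed by -3.67 and -1.82, CYB5R1 by 2.38 and 2.69, CYP19A3 by -3.19 and -1.52, SULT2A1 by -3.14 and -1.24 and STS by 0.38 and 0.28. SULT1E1 in Ha against Hb read -0.21 on this scale and 0.07 relative to the median. The split of called genes in Ha against Hb was 4666 higher and 3844 lower in edgeR but 2813 higher and 3834 lower on this scale. In La against Lb it was 4574 higher and 3352 lower in edgeR, 2918 higher and 2668 lower with a pseudocount of 1, and 3806 higher and 4445 lower with a pseudocount of 0.1. In Hb against Lb 432 genes were higher and 196 lower in edgeR, and 409 were higher and 104 lower with a pseudocount of 1.

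The other genes of the pathway were grouped by role, and the counts of each list stand beside shares over all genes of 28.2% rising and 23.2% falling with age in HZ and of 27.5% and 20.1% in LC. The lists are small, and no list was tested as a set. Some list genes passed the filter on low counts only through the group where they were high, which fixed their direction. Such genes add no support to their list's count. Among 7 listed electron transfer partners of P450 enzymes, 4 were in the table and tested, and 3 of them fell with age in each breed. POR fell by a log2 fold change of -2.52 in HZ (SE 0.32, adjusted p = 0.000336) and of -1.47 in LC (SE 0.24, adjusted p = 0.000722) in edgeR. FDX1, which serves the mitochondrial step from cholesterol, fell by -1.56 in LC (SE 0.20, adjusted p = 0.000192). The median over the 4 was -2.36 in HZ and -1.51 in LC with age.

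Of the 5 genes from cholesterol to testosterone, 3 fell with age in HZ and 4 in LC. CYP17A1 fell in LC by -1.19 in edgeR (SE 0.26, adjusted p = 0.00340), a call lost without Lb3 at -0.98, and it differed by -2.83 in HZ (SE 1.53, adjusted p = 0.134), or by -7.45 without Hb1 and -1.30 with Hb1 alone, both called. Its interaction was 1.64 (SE 1.62, adjusted p = 0.575), 6.28 and called without Hb1, and 0.10 with Hb1 as the only Hb library. HSD3B1 fell in HZ by -1.60 (SE 0.21, adjusted p = 0.000417) and differed by -0.69 in LC (adjusted p = 0.0300), with an interaction of 0.89 (adjusted p = 0.139; 0.71 with Hb1 alone). That interaction ran from 0.64 to 1.14 on leaving out 1 library and was called without Lb1 only. HSD17B3, which makes testosterone, fell in LC by -1.02 (SE 0.10, adjusted p = 4.25e-05), a call lost without La1 or Lb1, and at 30 days was higher in LC by 1.15 (SE 0.14, adjusted p = 0.00232). With age in HZ it differed by -0.33 (adjusted p = 0.228), and its interaction was -0.71 (adjusted p = 0.117; -0.26 with Hb1 alone). CYP17A1 was among the 3 genes most like SULT2A1 over the libraries, as given further on.

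Among genes that convert or clear 16-androstenes and androgens, 1 of 7 rose and 5 fell with age in HZ, and 1 of 6 rose and 3 fell in LC. CYP2E1, known from the clearance of boar taint compounds in liver, rose by 4.56 in HZ (SE 0.49, adjusted p = 0.000167) and by 3.92 in LC (SE 0.43, adjusted p = 6.72e-05) from 3 to 11 counts at 30 days, but it passed the filter through the 120-day groups, where it was high, so these calls add no support to its levels of 0.06 to 0.21 FPKM at 30 days and 1.31 to 2.79 FPKM at 120 days. CBR1, a carbonyl reductase, fell by -9.84 in HZ (SE 0.26, adjusted p = 1.65e-06) and by -5.82 in LC (SE 0.19, adjusted p = 8.73e-08), and at 120 days was higher in LC by 3.87 (SE 0.32, adjusted p = 0.00411). The first of 2 entries named AKR1C1 (ncbi_733634), an aldo-keto reductase, was lower in LC at 30 days by -7.90 (SE 0.58, adjusted p = 0.000350). It read 261, 107 and 396 FPKM in Ha1, Ha2 and Ha3 and 1.41, 0.86 and 0.84 FPKM in La1, La2 and La3, and how reads split between the entries is uncertain.

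Among genes of estrogen conversion, 1 of 6 fell with age in HZ and 2 of 6 in LC. Both counts include HSD17B2, which passed the filter through the 30-day groups alone, where it was high, so its calls with age add no support. HSD17B2, which inactivates estradiol and testosterone, read 54.0, 34.2 and 37.0 FPKM in Ha1, Ha2 and Ha3 and 25.1, 17.5 and 17.5 FPKM in La1, La2 and La3, and had 1 to 3 counts in each 120-day library. Against the floor of 3 counts it was at least 338-fold lower at 120 days in HZ and at least 196-fold lower in LC. At 30 days HSD17B2 was lower in LC by -1.03 in edgeR (SE 0.22, adjusted p = 0.0145), a call lost without Ha1, La2 or La3.

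Of the sulfate donors and other sulfotransferases, 8 were tested with age, 2 rising and 2 falling in HZ and 2 rising and 1 falling in LC. PAPSS2, which makes the sulfate donor that SULT2A1 uses, fell by -3.22 in HZ (SE 0.52, adjusted p = 0.00114) and by -2.03 in LC (SE 0.29, adjusted p = 0.000316), and the HZ change was -4.08 without Hb1. PAPSS1, its sister enzyme, differed by -0.66 in HZ (adjusted p = 0.00768) and by -0.48 in LC (adjusted p = 0.0109), both under the fold threshold. SULT4A1 rose by 2.08 in HZ (SE 0.24, adjusted p = 0.000225) and by 3.28 in LC (SE 0.19, adjusted p = 1.50e-06). BPNT1, which breaks down the spent donor, fell in HZ by -1.68 (SE 0.24, adjusted p = 0.000617), differed by -0.33 in LC (adjusted p = 0.0910) and at 120 days was higher in LC by 1.15 (SE 0.21, adjusted p = 0.0267), the latter lost without Hb3, Lb1, Lb2 or Lb3 and with Hb1 alone (0.93). Among the 8 other sulfatases and their activator, 1 rose and 4 fell in HZ and 1 rose and 2 fell in LC. ARSA rose by 2.42 in HZ (SE 0.25, adjusted p = 0.000141) and by 2.35 in LC (SE 0.19, adjusted p = 1.20e-05). SUMF1, which activates sulfatases, fell by -1.90 in HZ (SE 0.18, adjusted p = 9.32e-05) and by -1.16 in LC (SE 0.14, adjusted p = 0.000141). ARSE was lower in LC at 30 days by -1.55 (SE 0.12, adjusted p = 0.000495).

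Estrogen and estrogen-related receptors gave 2 rising and 1 falling of 5 tested in HZ, and 2 rising and 3 falling of 6 in LC. GPER1, 1 of the 3 falling in LC, passed the filter through La alone, where it was high, so it adds no support to that count. ESR1, an estrogen receptor, fell by -1.25 in HZ (SE 0.33, adjusted p = 0.0120 in edgeR) and by -1.37 in LC (SE 0.21, adjusted p = 0.000429). ESR2 fell in LC by -1.01 (adjusted p = 0.0332), a call lost in 5 of 6 fits that left out 1 library, and differed by -1.07 in HZ (adjusted p = 0.0969; -2.62 and called with Hb1 alone), with an interaction of 0.04 (adjusted p = 0.998; 1.59 with Hb1 alone). ESRRG rose by 1.31 in HZ (SE 0.18, adjusted p = 0.000473) and by 1.97 in LC (SE 0.21, adjusted p = 6.41e-05).

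Transporters of steroid sulfates gave 4 rising and 1 falling of 9 tested in HZ, and 3 rising and 4 falling of 9 in LC. SLC10A6, which takes up sulfated steroids, rose by 4.49 in HZ (SE 0.49, adjusted p = 0.000176) and by 3.56 in LC (adjusted p = 0.000587). In LC it passed the filter through Lb alone, where it was high, with 17.5, 6.18 and 3.46 counts in La1, La2 and La3. Its LC call, among the 3 rising there, therefore adds no support. At 120 days SLC10A6 was lower in LC by -2.08 (SE 0.35, adjusted p = 0.0229), a call lost without Hb3, Lb1, Lb2 or Lb3 and with Hb1 alone (-1.49, adjusted p = 0.0752). ABCG2, an export pump, was lower in LC at 120 days by -2.54 (SE 0.24, adjusted p = 0.00494). SLCO1A2 rose in LC by 3.17 (SE 0.23, adjusted p = 6.10e-06) and was lower in LC at 30 days by -1.74 (SE 0.20, adjusted p = 0.00190). SLCO2B1 fell in HZ by -1.80 (SE 0.25, adjusted p = 0.000567) and SLCO3A1 fell in LC by -1.64 (SE 0.11, adjusted p = 4.35e-06). Of the list genes given here as called with age in HZ, each was also called without Hb1, and with Hb1 as the only Hb library each but ESR1, which read -0.78.

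Markers of the testis cell types moved with age alongside the genes above, and their counts also stand beside 28.2% of all genes rising and 23.2% falling in HZ, 27.5% and 20.1% in LC, and 7.62% and 3.85% called between breeds at 30 and 120 days. CPM and FPKM are scaled to the whole library. In bulk tissue, fewer cells of a type, less RNA per cell and more RNA from other cells therefore cannot be told apart. Some markers passed the filter on low counts only through the group where they were high, so they add no support to their list's count. The 7 Leydig markers summed to 10086, 9586 and 8750 CPM in Ha1, Ha2 and Ha3, to 4066, 331 and 268 CPM in Hb1, Hb2 and Hb3, to 13676, 9326 and 11211 CPM in La1, La2 and La3 and to 4922, 7417 and 3086 CPM in Lb1, Lb2 and Lb3. Of these 7, 4 fell with age in HZ and 5 in LC, 1 was higher in LC at 30 days, and none was at 0 in any library. At 120 days none was called between breeds, but 5 of the 7 (STAR, CYP11A1, CYP17A1, INSL3 and LHCGR) were called without Hb1. LHCGR, at the median of the 7, differed by 1.95 (2.96 without Hb1, 0.94 with Hb1 alone) and CYP17A1 by 2.35 (6.90 without Hb1, 0.81 with Hb1 alone). CYP17A1 or INSL3 was the most abundant of them by FPKM in every library but Hb3, where HSD17B3 was. Their part in the results for CYB5A, CYP19A3 and SULT2A1 was not tested.

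Spermatid and spermatocyte markers ran the other way, as CYB5R1 did. The 10 spermatid markers summed to 4.99, 5.54 and 6.48 CPM in Ha1, Ha2 and Ha3, to 6524, 5789 and 8232 CPM in Hb1, Hb2 and Hb3, to 8.87, 7.74 and 4.41 CPM in La1, La2 and La3 and to 4193, 3452 and 3154 CPM in Lb1, Lb2 and Lb3. All 9 that were tested rose with age in each breed, but some passed the filter through the 120-day groups alone, which fixed their direction, so this count is no support. PRM1 was the most abundant in all libraries but Ha1, and at 30 days up to 3 of them were at 0 in a library, among them TNP1 and SPACA3. Of the 10 spermatid markers 1 was lower in LC at 120 days, and 0 of 5 tested were called between breeds at 30 days. The 8 spermatocyte markers, all of which rose in both breeds and 4 of which were lower in LC at 30 days, summed to 19.9 to 35.6 CPM in Ha, 651 to 783 in Hb, 12.7 to 16.1 in La and 485 to 502 in Lb, with PIWIL1 the most abundant at 120 days. The 11 spermatogonial markers summed to 304 to 369 CPM in Ha, 817 to 857 in Hb, 222 to 231 in La and 638 to 701 in Lb, but 6 fell and 3 rose in HZ, 5 fell and 4 rose in LC, and 1 was lower in LC at 30 days. DDX4 held most of the spermatogonial sum at 120 days, at 511 to 629 CPM in Hb and 367 to 416 in Lb. Their part in the rise of CYB5R1 was not tested.

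The summed somatic markers other than those of Leydig cells were also lower at 120 days. The 10 peritubular and stromal markers summed to 4509 to 4731 CPM in Ha, 255 to 608 in Hb, 6180 to 7613 in La and 2571 to 3084 in Lb, led by COL3A1 or ACTA2, with 8 falling in HZ, 5 falling and 1 rising in LC, and 5 higher in LC at 120 days. The 8 Sertoli markers summed to 1210 to 1664 CPM in Ha, 405 to 579 in Hb, 2642 to 3213 in La and 605 to 753 in Lb, led by CLDN11 or INHA, with 4 falling in each breed and 3 higher in LC at 30 days. The 5 endothelial markers, led by VWF, summed to 616 to 681 CPM in Ha, 173 to 305 in Hb, 627 to 795 in La and 278 to 497 in Lb, with 5 falling in HZ, 3 in LC and 1 higher in LC at 120 days. The 5 macrophage markers, led by CD163 or CSF1R, summed to 101 to 124 CPM in Ha, 10.7 to 20.1 in Hb, 107 to 122 in La and 21.3 to 37.8 in Lb, with 5 falling in HZ, 4 in LC and 1 higher in LC at 120 days. In Ha against Hb, AIF1 and CD68 passed the filter through Ha alone, where they were high. Their part of that count adds no support. The 3 adrenal-like markers found in the table, led by MRAP, summed to 42.4 to 61.4 CPM in Ha, 1.21 to 6.90 in Hb, 40.1 to 45.7 in La and 7.90 to 23.3 in Lb, with 2 of 2 tested falling in HZ, 1 of 2 in LC and 1 of 2 lower in LC at 30 days. In Ha against Hb, CYP21A2, 1 of these 2, passed the filter through Ha alone, where it was high. Its part of that count adds no support. Hb1 was not set apart in the germ cell sums as it was in the Leydig sum, but it stood above Hb2 and Hb3 in the stromal sum, at 608 against 354 and 255 CPM. COL3A1 was at 240 CPM in Hb1 and at 44.4 and 33.9 in the other Hb libraries. The part of these cell types in the results for the 8 genes was not tested.

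The genes whose log2 CPM ran most like each of the 8 over the 12 libraries are given as a description, since the libraries share breed and age. For CYB5A they were DNASE1L1, PLD4 and CTSH (Pearson's r of 0.994, 0.989 and 0.989, n = 12 libraries). For CYB5R1 they were ZMYND19, APOM and FSIP1 (0.995, 0.994 and 0.993). For CYP19A3 they were WNT5A, BLVRB and ARAF (0.969, 0.969 and 0.963), and for SULT2A1 E2F3, CYP17A1 and RDH12 (0.994, 0.984 and 0.983). The low genes had weaker matches: TIMM22, SLC6A8 and LGI2 for CYP19A2 (0.940, 0.910 and 0.889), POLR2K, TP53INP1 and MDM2 for SULT1E1 (0.852, 0.846 and 0.810), and RPTOR, SEZ6L2 and MED27 for STS (0.914, 0.912 and 0.899). CYP19A1 was too low to be compared.

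By position on Sscrofa11.1, CYB5A lay on chromosome 1 (149737584 to 149773222), CYB5R1 on chromosome 10 (24926167 to 24931772), SULT2A1 on chromosome 6 (53525496 to 53536723), SULT1E1 on chromosome 8 (66811536 to 66838181) and STS on the X chromosome (3926027 to 4076900). Among the deposited long noncoding transcripts, SULT2A1 alone of the 8 genes had neighbours within 10000 bases. The first, assembled by the study and classed by it as antisense with exon overlap (MSTRG.9581.1, chromosome 6, 53525356 to 53527165, 2 exons), had 0 counts in all 30-day libraries, 5, 6 and 4 counts in Hb1, Hb2 and Hb3 and 4, 4 and 1 counts in Lb1, Lb2 and Lb3. It was thus seen at 120 days alone and did not share the gap between Hb1 and the other Hb libraries that SULT2A1 showed, but at 0 to 6 counts it did not pass the filter and was not tested. The other, LOC102165433, began 9073 bases away and had at most 4 counts in a library for any of its 4 transcripts.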

How the data were processed

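Testis RNA of 12 boars was sequenced, 3 per breed and age. The authors trimmed reads with fastp 0.18.0, removed ribosomal reads with Bowtie2 2.2.8, aligned to the pig genome with HISAT2 2.1.0 and assembled with StringTie 1.3.4. The deposited tables give, for each coding gene and each long noncoding transcript, estimated counts, unscaled and rounded to 2 decimals as deposited by the authors, from an unnamed tool. They also give FPKM, which the authors scaled for transcript length and library size. The deposited exon positions of assembled transcripts (another unit, in bases) served only to find neighbours. Sample numbers did not pair animals across groups (r from -0.0363 to 0.0527 over 18 pairs).

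Counts were rounded, filtered with filterByExpr at a minimum count of 10, scaled by TMM and tested with the quasi-likelihood F test of edgeR 4.0.16 on whole tables, under R 4.3.3. Adjusted p-values follow Benjamini-Hochberg over all genes tested; standard errors were derived from the fold change and its F statistic. Ratios within a library used FPKM and exact two-sided permutation tests, adjusted over 8 tests. Each age difference of a ratio is a mean over the breeds, and each breed difference a mean over the ages. Python 3.11.15 with numpy 2.4.6, pandas 2.3.3 and matplotlib 3.10.9 made summaries and plots. The edgeR fits of Ha against Hb and of Hb against Lb were tested on simulated counts, in which no library was set apart as Hb1 was. The other steps were not tested in this way.

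Alternatives were DESeq2 1.42.0 (values kept to 4 digits before calling), RLE scaling, no filter, a floor of 10 counts across a whole group, 1 fit of all 12 libraries, limma 3.58.1 on log2 FPKM with a pseudocount of 1 or 0.1, a replicate block and leaving out each library. The 8 genes and all lists were chosen with earlier results of these data known. Named from each pathway list were the called genes lowest in adjusted p among those up and among those down with age, each called gene in the breed comparisons, and POR, CYP17A1, PAPSS1, PAPSS2, ESR1, ESR2 and SLC10A6; other named genes were chosen after their values were seen. At a depth of 17165519 to 23758931 counts per library, SULT1E1, STS, CYP19A1 and CYP19A2 had low counts, as did SULT2A1 in Hb2 and Hb3.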

Additional observations from a re-analysis of the deposited data

Results flagged for a closer look

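For 7 entries of the pathway lists, and for none of the 8 genes, the age difference itself differed between the breeds in the edgeR interaction test, where 890 of 17332 genes were called (5.14%). CBR1 gave a log2 interaction of 4.0 (adjusted p = 0.000143), being lower by far at 120 days in HZ than in LC, at 0.32, 0.43 and 0.33 FPKM in Hb1, Hb2 and Hb3 and 4.92, 6.99 and 5.29 FPKM in Lb1, Lb2 and Lb3. ABCG2 gave -2.16 (adjusted p = 0.00390), and both CBR1 and ABCG2 were called without each of the 12 libraries and with Hb1 as the only Hb library.

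The other 5 differences depended more on single libraries. AKR1C1 (ncbi_733634) gave 7.07 (adjusted p = 0.0162), a call lost without Lb2 only, with 0 to 19 counts in the 120-day libraries. With Hb1 alone it read 13.7, a value set by the prior count, since Hb1 had 0 counts. The second AKR1C1 entry (ncbi_733694) gave 3.93 (adjusted p = 0.0443) at 1 to 21 counts a library, and 9 of the 12 fits that left out 1 library lost it. It read 3.02 with Hb1 as the only Hb library. This entry passed the filter through Ha and Lb, where it was high, with 1 to 5 counts in the Hb and La libraries. Its call therefore adds no support. BPNT1 gave 1.34 (adjusted p = 0.0218), lost without Ha1, Ha2 or La3, and read 1.08 (adjusted p = 0.0666) with Hb1 as the only Hb library. SULT4A1 gave 1.18 (adjusted p = 0.0311), lost without Ha1, Ha2, La1, La3, Lb2 or Lb3, and read 0.90 (adjusted p = 0.0820) with Hb1 as the only Hb library. SLCO1A2 gave 1.55 (adjusted p = 0.0266), lost without Ha1, Ha2, Hb3, La1, La2, La3 or Lb3 but kept with Hb1 alone (2.08).

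With 3 libraries per group, no single library was tested for lying far from its group.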

How the results depend on the processing

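Of 77 alternative values for the number of the 8 genes called, 65 lay within 1.5 times the main count and 12 moved. Of 58 for summed aromatase, 49 kept their direction and side of the threshold, 6 lost the call and 3 gained it. Of 120 for the ratios, 103 kept both, 10 lost the call, 6 gained it and 1 reversed. Of 495 for single genes, 448 kept both, 12 lost it, 21 gained it and 14 reversed. The alternative with Hb1 as the only Hb library was chosen after seeing the data, and assumes that Hb1 varies like the other groups. The cause was not tested for any of the changes below.

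The number called in Ha against Hb was 2 to 5 on leaving out 1 library, 5 being without Hb1. In Ha against La it was 0 with all 12 libraries in 1 fit. In Hb against Lb it was 1 by DESeq2, 1 with all 12 libraries in 1 fit, 1 by limma with either pseudocount, each time CYB5A, and 0 to 3 on leaving out 1 library. For the interaction it was 1 by DESeq2 (CYP19A2), 1 by limma with a pseudocount of 1 (CYB5A), 2 with 0.1 (CYP19A2 and CYB5A) and 0 to 3 on leaving out 1 library. The CYP19A2 calls add no support, since it passed the filter mainly through Lb, where it was high.

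Summed aromatase in Ha against Hb ran from -3.45 to -1.54 on leaving out 1 library and was -0.78 with Hb1 alone. In La against Lb it ran from -1.31 to -0.53 on leaving out 1 library, and limma called it at -1.65 and -1.68. In Hb against Lb it ran from 1.11 to 2.96 on leaving out 1 library.

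The log2 ratio of CYB5A to CYP17A1 reversed with age to -0.69 with Hb1 alone, and ran from -2.21 to -1.09 with breed on leaving out 1 library. Summed aromatase to CYP17A1 ran from 0.80 to 1.51 with age and from -1.83 to -1.07 with breed. SULT2A1 to STS ran from -4.42 to -2.68 with age and from 1.96 to 3.70 with breed, and the breed difference passed at 2.61 (exact permutation, adjusted p = 0.03) with 0.1 added to FPKM and at 2.77 without La2 (exact permutation, adjusted p = 0.04). CYB5A to POR ran from -0.66 to -0.45 with age and from 0.42 to 0.63 with breed. Leaving out a library also lowers the number of arrangements, and the age calls of SULT2A1 to STS and CYB5A to POR were lost without Ha1, Ha2 or Ha3, and the breed call of CYB5A to POR without Ha1, Lb1, Lb2 or Lb3.

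Among single genes, values that reversed were all uncalled in edgeR with all libraries. CYP19A3 gave an interaction of -0.20 with Hb1 alone. SULT2A1 gave an interaction of -1.0 with Hb1 alone, and ran from -0.0346 without Hb2 to 4.87 without Hb1. SULT1E1 in Ha against Hb ran from -1.18 without Hb2 to 0.19 without Ha2. In Hb against Lb it gave 0.0212 and 0.0937 by limma, -0.39 without Hb3, 0.55 without Hb2, 0.22 without Lb2 and 0.43 with Hb1 alone. STS gave interactions of 0.0175 and 0.0343 by limma, -0.34 without Hb1, 0.18 without Hb3, 0.0221 without Lb3 and 0.26 with Hb1 alone.

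With the replicate number as a block, 3 of the 8 genes were called in Ha against Hb, 4 in La against Lb, 1 in Ha against La, 0 in Hb against Lb and 0 for the interaction, where 8430 of 16548, 7770 of 16637, 1030 of 15648, 154 of 16311 and 672 of 17332 genes were called. With this block CYB5A changed by -3.48 in HZ and -1.67 in LC. The neighbouring long noncoding transcripts gave no value under any alternative, since none passed the filter. At this depth SULT1E1, STS, CYP19A1 and CYP19A2 had low counts in all libraries, and SULT2A1 had 17 and 11 in Hb2 and Hb3.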

Other observations

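An unnamed gene annotated as a sulfotransferase 1C1 (LOC100623656), chosen after its values were seen, was far more abundant than SULT2A1 and SULT1E1. It read 657, 748 and 559 FPKM in Ha1, Ha2 and Ha3, 191, 6.79 and 7.46 FPKM in Hb1, Hb2 and Hb3, 931, 435 and 596 FPKM in La1, La2 and La3 and 251, 414 and 113 FPKM in Lb1, Lb2 and Lb3. Hb1 stood above Hb2 and Hb3 here as it did for SULT2A1. This gene was in none of the lists.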
